A study of Mus musculus with 24 samples.

Results

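The core genes of the circadian clock were followed in bulk mRNA-seq of mouse bone marrow stem and progenitor cells. The 10 members were Per1, Per2, Per3, Cry1, Cry2, Arntl, Clock, Nr1d1, Nr1d2 and Dbp, each found by its symbol among the 55376 genes counted in every library. The set was chosen by a known result of these data, namely that Per1 differed between genotypes in opposite directions in young and middle-aged hematopoietic stem cells (HSCs). The Per1 values of those HSC libraries are therefore a description without a test, and so is any comparison that shares them. The remaining 9 genes were picked as named parts of the clock. All 10 passed the filter on low counts in every comparison, with 206 reads or more per gene and library.

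The mice were homozygous TTPΔARE animals, which lack an AU-rich element of the Zfp36 mRNA in every cell and so carry more of the mRNA decay factor tristetraprolin (TTP), or their wild-type (WT) littermates. All were males without treatment, young (4 to 5 months, Y) or middle-aged (1 year, M). HSCs were sorted as Lineage-Sca1+cKit+ CD34-Flk2-CD150+ cells, and MPP3 cells, a granulocyte and macrophage biased multipotent progenitor, were sorted from young mice. There were 4 Y-WT, 4 Y-TTPΔARE, 5 M-WT and 3 M-TTPΔARE HSC libraries, and 4 Y-WT and 4 Y-TTPΔARE MPP3 libraries. The hour at which the mice were killed is not given in the sources used here, nor is it said that each library came from a different animal, so p-values measure the spread between these samples.

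The mammalian clock is a delayed feedback loop. CLOCK and ARNTL (also called BMAL1) form a heterodimer that binds E-boxes and drives the Per and Cry genes, whose proteins return to the nucleus and repress it. NR1D1 and NR1D2 (REV-ERBα and REV-ERBβ) repress Arntl, and DBP is an output activator that binds D-boxes. Transcripts of the loop rise and fall over the day, and Per1 can also be induced acutely by glucocorticoid hormone and by cAMP signals. In bone marrow, egress of stem and progenitor cells to the blood follows a daily rhythm that involves Cxcr4 and its ligand. TTP itself binds AU-rich stretches in 3′ untranslated regions and speeds the decay of the mRNA.

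Sequences were inspected for the elements that the loop and TTP use. RefSeq promoter windows (GRCm38.p6, 250 bases before to 50 after a start) were at hand for 9 of the members in 13 windows, Per2 being the exception. The E-box CACGTG was found in 2 of the 13 windows, 1 of Per1 and 1 of Cry1, against 7.15% of all 32851 promoter windows. The matches are shown with the E-box in capitals, since Per1 is the gene whose level varied most and Cry1 the one whose level differed between WT MPP3 cells and HSCs.

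Per1, chr11:69098771-69098800, + strand: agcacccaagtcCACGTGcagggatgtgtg

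Cry1, chr10:85185097-85185126, - strand: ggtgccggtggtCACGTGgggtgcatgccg

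The same Per1 window holds a match to the REV-ERB/ROR core AGGTCA (read as TGACCT), as did windows of Arntl, Clock and Nr1d2, 4 of 13 in all, against 16.3% of all promoters. The D-box (TTATGTAA, TTACGTAA, TTACATAA or TTATATAA) matched in the Per3 window alone among the members, against 1.59% of promoters. Neither the CRE TGACGTCA (1.79% of promoters) nor the glucocorticoid receptor half-site AGAACA (19.0%) matched in a member's window. Each motif was searched on both strands, the E-box, the CRE, TTACGTAA and TTATATAA being their own reverse complements. A match is a description of letters in these short windows.

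In the 3′ untranslated regions of GENCODE M21, the longest annotated per gene, the AU-rich heptamer TATTTAT was present in 27.6% of 21020 genes and in 3 of the 10 members. These were Clock, Nr1d1 and Nr1d2, shown with the heptamer in capitals as the members that carry the letters TTP prefers.

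Clock, chr5:76215751-76215780, - strand: catagttggaaTATTTATgtaaatggtttt

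Nr1d1, chr11:98768102-98768131, - strand: aaccagaatctTATTTATattgttataaaa

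Nr1d2, chr14:18206617-18206646, - strand: gctgagatgttTATTTATatgtgtatacta

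The core pentamer ATTTA, found in 65.2% of genes, occurred 20 times in the 6831 bases of Clock, 6 times in the 2631 bases of Nr1d2, 3 times in Cry1, and 2 times each in Per3, Cry2 and Nr1d1. It occurred once in Per2 and in Dbp. Per1 (803 bases) and Arntl (507 bases) had 0 of either motif. The heptamer holds the pentamer, so the counts are nested.

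The libraries held 24261371 to 39934554 counts (median 34817620.5). Zfp36, the targeted gene, had log2 fold changes of 0.96 ± 0.21 (SE) in young HSCs (adjusted p = 0.238), 0.97 ± 0.11 in middle-aged HSCs (adjusted p = 0.002) and 1.80 ± 0.18 in MPP3 cells (adjusted p = 0.000646), in the direction the labels state. Summed HSC markers (6 genes) were 514 to 685 CPM (counts scaled to library size) in Y-WT and 693 to 720 in Y-TTPΔARE HSCs. The sums were 834 to 937 in M-WT and up to 1070 (median 1020) in M-TTPΔARE HSCs, and 214 to 302 in MPP3 libraries. In HSCs the sums of the genotypes did not overlap at either age, but single markers did not all follow. In middle-aged HSCs Procr, Slamf1 and Mecom were higher with TTPΔARE without overlap, and Fgd5 and Hoxb5 overlapped. Ctnnal1 was lower there, at 60.4 to 70.9 CPM in M-WT and 52.6 to 57.9 in M-TTPΔARE. In young HSCs only Slamf1 did not overlap. The 6 MPP3 and early granulocyte-monocyte markers summed to 114 to 157 CPM in young HSCs and to 486 to 2430 in MPP3 cells. In middle-aged HSCs the sums were 194 to 252 in M-WT and 165 to 178 in M-TTPΔARE, again without overlap. Nearly all of the middle-aged sums was Prtn3, at 190 CPM or more in M-WT and 160 to 176 in M-TTPΔARE HSCs. The other markers of this list were each at 3.06 CPM or less there and overlapped between genotypes. Prtn3 itself overlapped between Y-WT HSCs and Y-WT MPP3 cells. Sample numbers ran in separate sets for middle-aged HSCs, young HSCs and MPP3 cells, so age and cell type cannot be told apart from the set.

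Summed markers of some other cell types differed with genotype, several of them with overlap. The 4 B cell markers overlapped in young HSCs (47.1 to 102 CPM in Y-WT, 62.6 to 97.0 in Y-TTPΔARE), in middle-aged HSCs and in MPP3 cells. The 3 endothelial markers summed to 92.3 to 108 CPM in M-WT and 110 to 118 in M-TTPΔARE HSCs, and overlapped in young HSCs and MPP3 cells. Of the single markers in middle-aged HSCs only Emcn did not overlap, at 31.5 to 41.5 CPM in M-WT and 42.5 to 51.5 in M-TTPΔARE. Pecam1 overlapped. Cdh5 overlapped too, with a lower range with TTPΔARE (0.617 to 1.47 CPM in M-WT, 0.167 to 0.725 in M-TTPΔARE). The 4 T cell markers (Cd3e, Cd3g, Cd3d, Cd4) summed to 13.3 to 27.3 CPM in Y-WT and 25.9 to 74.8 in Y-TTPΔARE HSCs, 1.97 to 4.71 in M-WT and 3.41 to 11.9 in M-TTPΔARE HSCs, and 5.7 to 6.77 and 7.49 to 12.7 in MPP3 cells. Cd3d was at 0 in at least 1 M-WT and 1 Y-WT MPP3 library, and Cd3e and Cd3g in at least 1 Y-WT MPP3 library. The 4 erythroid markers summed to 4.56 to 7.15 CPM in Y-WT and 13.8 to 51.8 in Y-TTPΔARE HSCs, 4.64 to 68.6 and 23.3 to 36.0 in the middle-aged pair, and 3.35 to 6.77 and 11.8 to 58.0 in MPP3 cells. The 4 mature neutrophil markers summed to 5.03 to 12.6 CPM in M-WT and 2.75 to 3.84 in M-TTPΔARE HSCs, without overlap and lower with TTPΔARE as Per1 was there, to 4.87 to 144 and 7.94 to 12.7 in young HSCs, and to 6.48 to 78.0 and 13.0 to 127 in MPP3 cells. The part of these markers, the HSC markers included, in the results was not tested. In bulk RNA, fewer cells of a type and less RNA per cell cannot be told apart.

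All 10 clock genes were expressed in both cell types. On the scale of CPM per kilobase of exon, the median level over 24 libraries was highest for Nr1d2 (14.0), followed by Cry1 (9.01), Cry2 (7.77), Nr1d1 (5.62), Dbp (5.47), Arntl (4.8), Per2 (4.51), Per3 (4.37), Per1 (3.8) and Clock (2.25). Per1, low in this order, varied most between the 6 groups, its highest group mean being 3.25 times its lowest. The ratio was 2.07 for Cry2 and 1.91 for Nr1d1, and lowest for Arntl (1.26) and Per3 (1.2). The members that share exonic bases with a gene on the opposite strand numbered 4, and whether counting used strand is not stated. Dbp shared 18.0% of its exonic bases with Sphk2, Nr1d1 8.55% with Thra, Cry2 4.67% and Arntl 0.439% with a noncoding gene each.

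Per1, an immediate-early repressor of the loop, was read at 20.8, 15.5, 10.8 and 18.1 CPM in the 4 Y-WT HSC libraries (mean 16.3 ± 4.23, SD) and at 45.5, 67.6, 35.7 and 33.3 CPM in the 4 Y-TTPΔARE HSC libraries (45.5 ± 15.6). In middle-aged HSCs the levels were 20.4, 30.04, 30.2, 27.0 and 31.7 CPM for M-WT (27.9 ± 4.52, n = 5) and 19.2, 16.4 and 16.4 CPM for M-TTPΔARE (17.4 ± 1.63, n = 3). Every young TTPΔARE library lay above every young WT library, and every middle-aged TTPΔARE library below every middle-aged WT library. The gap between the middle-aged groups was narrow, 19.2 against 20.4 CPM at the closest pair.

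In fitted terms, the log2 fold change of Per1 with TTPΔARE was 1.44 ± 0.25 (SE, a 2.71-fold higher level) in young HSCs and -0.73 ± 0.14 in middle-aged HSCs, a difference of -2.22 ± 0.31 between ages. These are the values the members were selected on, and no test is attached to them. Seen along age, the Per1 level was 0.77 higher on the log2 scale in M-WT than in Y-WT HSCs, and 1.40 lower (log2 fold change -1.40) in M-TTPΔARE than in Y-TTPΔARE HSCs. The 2 ages share no library within a genotype comparison, but the age comparisons reuse the same HSC libraries.

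**Figure D1:**
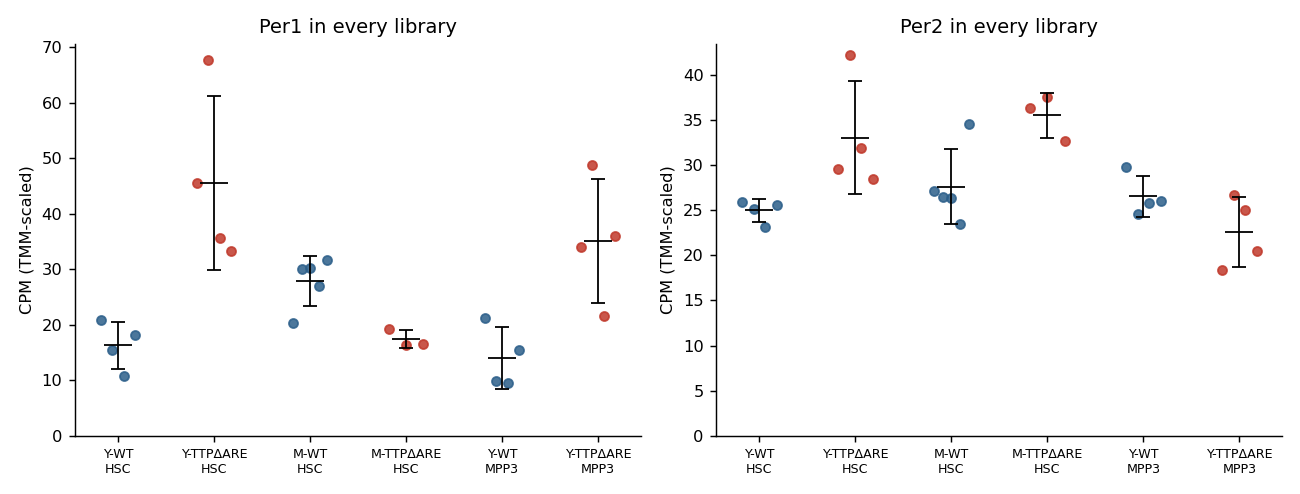
Per1 (left) and Per2 (right) in CPM for each of the 24 libraries by group. Points are libraries (blue WT, red TTPΔARE) and bars show the mean ± SD. For Per1 the red and blue points separate in all 3 pairs of groups, with the order turned in middle-aged HSCs, while the Per2 means are higher with TTPΔARE in both HSC pairs (33.1 against 25.0 CPM and 35.5 against 27.6 CPM) and lower in MPP3 cells (22.6 against 26.5 CPM).

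MPP3 libraries were not part of the choice, and there Per1 was tested. Same-numbered HSC and MPP3 libraries deviated together for Per1 (r = 0.787 over 8 pairs), and whether they share mice is not stated. The test may therefore not be independent of the HSC values behind the choice. Per1 levels were 21.2, 9.80, 9.55 and 15.4 CPM in Y-WT and 34.0, 48.7, 21.6 and 36.0 CPM in Y-TTPΔARE MPP3 libraries. The means were 14.0 ± 5.52 and 35.1 ± 11.1 (SD, n = 4 each). The groups did not overlap, although the highest WT and the lowest TTPΔARE library were only 21.2 and 21.6 CPM. The difference in mean log2 CPM was 1.34, and an exact two-sided permutation test gave p = 0.0286, the smallest that 70 splits allow. Across the whole table the log2 fold change was 1.30 ± 0.31 (SE) with an adjusted p of 0.0768 by edgeR's quasi-likelihood test, so Per1 did not pass, whereas it passed with DESeq2 (adjusted p = 0.0019) and with edgeR's likelihood ratio test (adjusted p = 0.00325). The difference in the genotype effect between MPP3 cells and HSCs was -0.22 on the log2 scale and turned sign when single libraries were left out.

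Ordered by mean, Per1 rose from Y-WT MPP3 (14.0 CPM) through Y-WT HSC (16.3), M-TTPΔARE HSC (17.4), M-WT HSC (27.9) and Y-TTPΔARE MPP3 (35.1) to Y-TTPΔARE HSC (45.5). Neighbours in that order overlapped except M-TTPΔARE and M-WT HSCs. The young TTPΔARE cells of both types thus stood at the top and the young WT cells at the bottom, with M-TTPΔARE HSCs beside the latter.

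Per2, the paralog with the same repressor role, had higher means with TTPΔARE in HSCs of both ages. Its level was 25.9, 25.2, 23.2 and 25.6 CPM in Y-WT and 29.6, 42.2, 31.9 and 28.5 CPM in Y-TTPΔARE HSCs, groups that did not overlap. In middle-aged HSCs it was 27.1, 26.5, 26.4, 23.5 and 34.6 CPM in M-WT and 36.3, 37.5 and 32.7 CPM in M-TTPΔARE, overlapping through 1 high WT library. The log2 fold changes were 0.36 ± 0.12 (SE) in young and 0.31 in middle-aged HSCs, and neither passed the test over all genes (adjusted p = 0.453 and 0.226). The difference between ages was -0.10 (adjusted p = 0.784), and 0.009 without Y-TTPΔARE HSC replicate 2. In MPP3 cells the log2 fold change was -0.25 (adjusted p = 0.586).

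The ratio of Per1 to Per2 counts within a library does not depend on the scaling of libraries. It was 0.468 to 0.802 in Y-WT HSCs against 1.12 to 1.6 in Y-TTPΔARE HSCs, and 0.752 to 1.15 in M-WT against 0.437 to 0.529 in M-TTPΔARE HSCs. In MPP3 cells it was 0.37 to 0.712 in WT and 0.862 to 1.85 in TTPΔARE. The groups were apart in all 3 pairs, and in both HSC pairs Per1 had been chosen for its difference. Per3 is the remaining family member, with a lesser part in the loop. Its group means lay between 38.9 and 46.8 CPM, the lowest ratio of highest to lowest mean among the 10 genes (1.2).

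Cry2, a repressor that partners the PER proteins, had the largest fold change between ages in TTPΔARE HSCs among the members after Per1. It was read at 60.8, 57.4, 45.6, 51.3 and 53.5 CPM in M-WT and 67.6, 73.2 and 73.1 CPM in M-TTPΔARE HSCs, groups that did not overlap. The log2 fold change was 0.36, with an adjusted p of 0.0892, so it did not pass. In young HSCs the group means differed by less than the spread, 49.7 ± 4.88 CPM in Y-WT and 49.6 ± 3.09 CPM in Y-TTPΔARE. In MPP3 cells the order was turned, with 45.6, 42.4, 46.9 and 44.7 CPM in WT and 35.9, 32.7, 40.2 and 29.1 CPM in TTPΔARE, again without overlap but not passing the test (log2 fold change -0.40, adjusted p = 0.328). M-TTPΔARE HSCs had more Cry2 than Y-TTPΔARE HSCs (log2 fold change 0.52, adjusted p = 0.00485), a call that was lost with the replicate number as a block (adjusted p = 0.0591). Cry1, the paralog, was at 26.3 to 31.7 CPM in the 4 HSC group means and at 39.4 and 42.7 CPM in the MPP3 group means.

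Arntl and Clock, the activator pair, did not pass the test with genotype in any cell type. Arntl group means lay between 31.5 and 39.7 CPM and its largest genotype difference was 0.10 on the log2 scale, in middle-aged HSCs. There the groups did not overlap, with 34.5 to 37.6 CPM in M-WT and 38.5 to 40.6 CPM in M-TTPΔARE, but the adjusted p was 0.482. Clock was read at 29.6 ± 3.60 and 32.1 ± 4.42 CPM in young, 36.8 ± 3.00 and 40.0 ± 2.83 CPM in middle-aged HSCs, and 24.5 ± 3.51 and 22.8 ± 2.28 CPM in MPP3 cells (WT first). Its log2 fold change between ages was 0.30 in WT (adjusted p = 0.0656) and 0.31 in TTPΔARE (adjusted p = 0.124).

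Nr1d1 and Nr1d2, the repressors of Arntl, did not pass the test with genotype in any cell type. Nr1d2 in MPP3 cells was at 73.3, 72.5, 73.7 and 83.9 CPM in WT and 59.2, 53.7, 55.3 and 37.2 CPM in TTPΔARE, groups that did not overlap (log2 fold change -0.58, adjusted p = 0.257). Nr1d1 went from 16.0 ± 3.55 CPM in Y-WT to 20.6 ± 3.12 CPM in M-WT HSCs (log2 fold change 0.36, adjusted p = 0.114). Dbp, the output activator, was at 14.0, 14.9, 10.2, 15.2 and 14.3 CPM in M-WT and 17.4, 20.1 and 20.8 CPM in M-TTPΔARE HSCs. The groups did not overlap and the log2 fold change was 0.46, with an adjusted p of 0.119. In young HSCs both genotypes were near 17 CPM for Dbp (17.3 ± 4.57 and 17.9 ± 2.63).

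Calls rested on edgeR's quasi-likelihood test over the whole table, with 3 limits together: adjusted p below 0.05, change of more than 1.2-fold and mean log2 CPM above 1.5. With TTPΔARE in young HSCs 0 of 9 members were called, where 0.0246% of all genes tested were. One member, Per2, had an unadjusted p under 0.05, and DESeq2 also called 0. The number of genes called in that comparison depended on the test, with 6 by quasi-likelihood, 146 by likelihood ratio and 304 by DESeq2. The study itself reported more genes there than any of these, so 0 of 9 carries little weight. In middle-aged HSCs 0 of 9 were called (1.41% of all genes), 3 had an unadjusted p under 0.05 (Per2, Cry2, Dbp) and DESeq2 called 2, Cry2 and Dbp. In MPP3 cells 0 of 10 were called (1.71% of all genes), 3 had an unadjusted p under 0.05 (Per1, Cry2, Nr1d2) and DESeq2 called 1, Per1. The members without overlap numbered 2 in young HSCs (Per1, Per2), 4 in middle-aged HSCs (Per1, Cry2, Arntl, Dbp) and 3 in MPP3 cells (Per1, Cry2, Nr1d2), where 8.35%, 13.8% and 12.3% of expressed genes did not overlap. Per1 counts there because the choice fixed it in both HSC comparisons. The median log2 fold change of the 9 other members was 0.07, 0.10 and -0.09, beside 0.03, -0.03 and 0.00 over all expressed genes.

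The genotype effect of the other members was also compared between ages and between cell types. Between ages 0 of 9 passed (0.0213% of all genes), with 1 unadjusted p under 0.05 (Cry2, difference 0.35 on the log2 scale, adjusted p = 0.304) and 0 calls by DESeq2. Between MPP3 cells and HSCs 0 of 9 passed (0.429% of all genes), with 3 unadjusted p under 0.05 and 0 calls by DESeq2. These were Per2 (-0.72, adjusted p = 0.200), Nr1d2 (-0.75, adjusted p = 0.252) and Cry2 (-0.47, adjusted p = 0.279), all with a lower TTPΔARE effect in MPP3 cells. The median difference over all expressed genes in that comparison was -0.11.

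**Figure D2:**
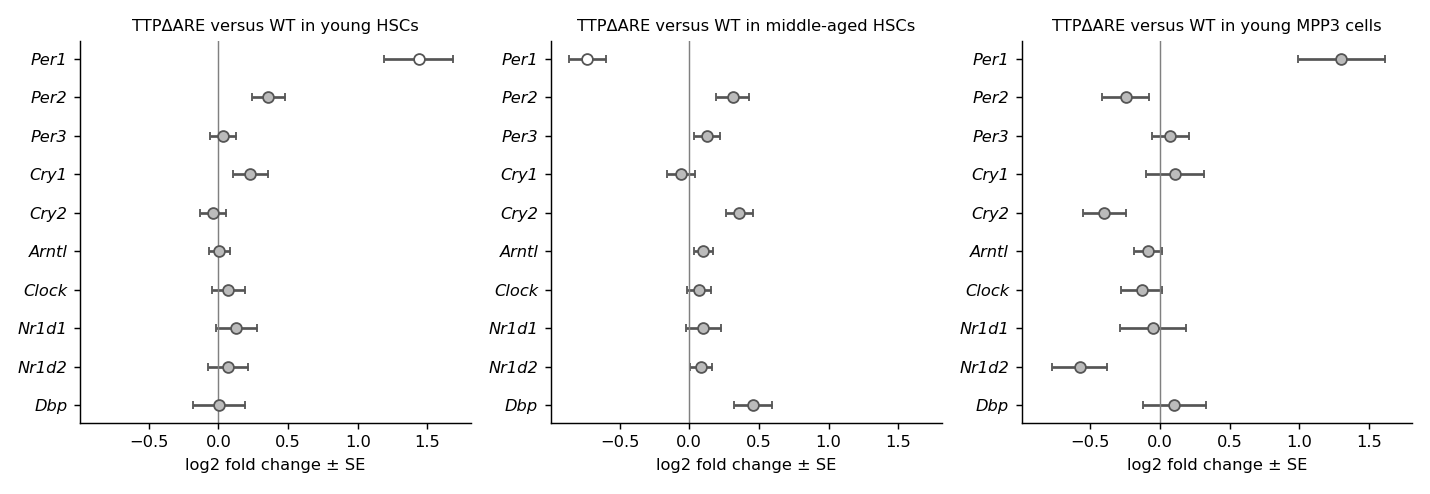
Log2 fold change (TTPΔARE over WT) ± SE of the 10 members in HSCs of each age and in MPP3 cells. White points (Per1 in HSCs) carry no test and grey points did not pass. Per1 stands at 1.44, -0.73 and 1.30, away from the other 9 members, which lie between -0.58 and 0.46.

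Between cell types, most members were lower in MPP3 cells of TTPΔARE mice. Per2, Cry2, Arntl, Clock and Nr1d1 fell, 5 of 9 members, where 16.3% of all genes were called. Clock, for example, was at 29.3, 37.8, 28.0 and 33.5 CPM in Y-TTPΔARE HSCs and 25.2, 19.8, 23.6 and 22.6 CPM in MPP3 cells, without overlap. The log2 fold changes were -0.63 for Per2 (adjusted p = 0.0428), -0.61 for Cry2 (0.0205), -0.35 for Arntl (0.0276), -0.59 for Clock (0.0161) and -0.70 for Nr1d1 (0.0339). In WT mice the same genes had 0.05 (Per2), -0.19 (Cry2), -0.19 (Arntl), -0.31 (Clock) and -0.46 (Nr1d1), none called. Their differences between genotypes did not pass edgeR's quasi-likelihood test (adjusted p = 0.2 to 0.865), so the fall is not shown to be particular to TTPΔARE. Nr1d2 missed the threshold (-0.62, adjusted p = 0.0538). The replicate numbers paired HSC and MPP3 libraries of TTPΔARE mice, and with the number as a block Arntl was lost (adjusted p = 0.0578) and Nr1d2 gained (adjusted p = 0.0477). The count fell to 0 without Y-TTPΔARE HSC replicate 2 or without Y-TTPΔARE HSC replicate 4, to 2 without Y-TTPΔARE HSC replicate 3, and to 3 without Y-TTPΔARE HSC replicate 1 or Y-TTPΔARE MPP3 replicate 1.

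In WT mice, 1 of 9 members was called between cell types, where 22.2% of all genes were. Cry1 rose from 27.9, 29.1, 23.2 and 24.9 CPM in HSCs to 35.1, 46.9, 42.8 and 32.9 CPM in MPP3 cells (log2 fold change 0.55, adjusted p = 0.0178), without overlap. With upper quartile scaling Cry1 missed the threshold (adjusted p = 0.0564) and 4 other members were called lower, so the calls in this comparison changed with the scaling. Cry1 was also lost without Y-WT HSC replicate 3 or without Y-WT MPP3 replicate 2. Per1 had log2 fold changes of -0.27 in WT and -0.46 in TTPΔARE, given without a test.

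**Figure D3:**
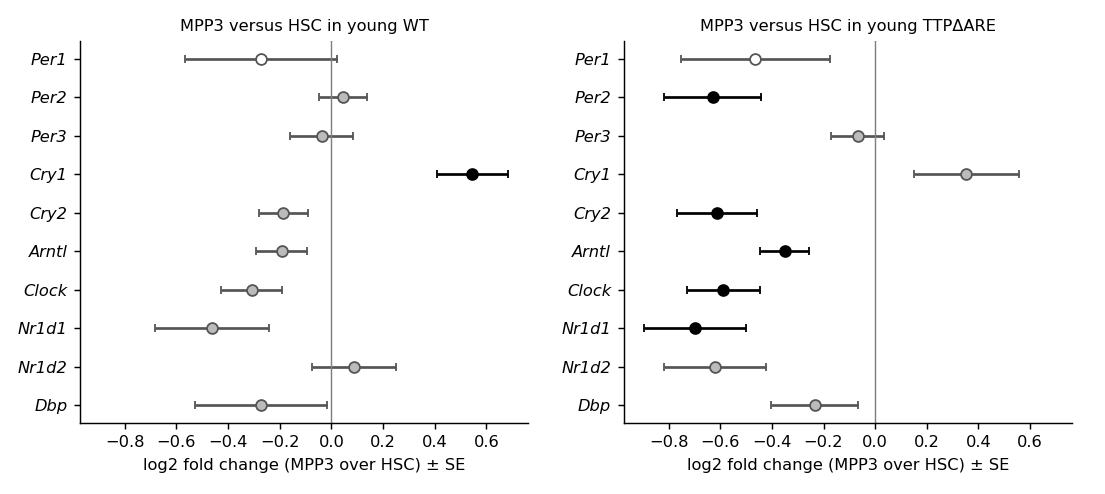
Log2 fold change (MPP3 over HSC) ± SE of the 10 members in young WT (left) and young TTPΔARE mice (right). Black points passed, grey points did not, and white points (Per1) carry no test. One black point, Cry1 at 0.55, stands in WT, and 5 black points between -0.70 and -0.35 stand in TTPΔARE.

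With age, 0 of 9 members were called in WT HSCs (12.1% of all genes), 2 had an unadjusted p under 0.05 (Clock, Nr1d1) and DESeq2 called 0. In TTPΔARE HSCs 1 of 9 was called (8.22% of all genes), namely Cry2, and DESeq2 called Cry2 and Nr1d1. With 9 members tested, neither count stands away from the share of all genes.

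Of 23 other clock genes and regulators, 21, 19 and 17 were above the expression limit in young HSCs, middle-aged HSCs and MPP3 cells. With TTPΔARE 0 of them were called in young HSCs (0.0246% of all genes), 1 in middle-aged HSCs (1.41%) and 0 in MPP3 cells (1.71%). The 1 called gene was Rora, which encodes the activator that competes with REV-ERB at Arntl. It was at 36.2 to 45.3 CPM (median 42.8) in M-WT and at 52.9, 69.3 and 62.8 CPM in M-TTPΔARE HSCs (log2 fold change 0.51, adjusted p = 0.0308). Without M-WT replicate 2, 3 or 5 or M-TTPΔARE replicate 2 or 3 Rora no longer passed (adjusted p = 0.0511 to 0.15), nor did it with the replicate block (adjusted p = 0.16) or in the fit over 24 libraries (adjusted p = 0.369). Bhlhe41, a repressor of E-box transcription named after its values were seen, was at 1.40 to 2.33 CPM in M-WT and 3.22 to 3.86 CPM in M-TTPΔARE HSCs (log2 fold change 0.90, adjusted p = 0.047) and missed only the limit on mean log2 CPM (1.42). Its adjusted p was 0.0076 to 0.813 over the alternatives. Of 7 clock outputs, 1 fell in middle-aged HSCs (Cxcr4), 1 rose in MPP3 cells (Cdkn1a, the cell cycle inhibitor p21, log2 fold change 1.06, adjusted p = 0.0417), and 0 passed in young HSCs. Cdkn1a was lost without any of the 4 Y-WT MPP3 libraries or without Y-TTPΔARE MPP3 replicate 1, 2 or 3 (adjusted p = 0.0526 to 0.155), and with the replicate block (adjusted p = 0.128). In young HSCs 6 genes passed in the whole table. Between cell types the other clock genes were called in both directions, 5 higher and 4 lower in WT MPP3 cells, where 22.2% of all genes were called. Among them were Bhlhe40 (-1.52) and Timeless (1.67), both on the log2 scale.

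Cxcr4, the receptor that holds stem cells in the marrow, differed with genotype in the same 2 directions as Per1. Its level was 21.8, 16.8, 16.8 and 16.6 CPM in Y-WT and 31.7, 33.6, 31.6 and 26.8 CPM in Y-TTPΔARE HSCs, and 16.9, 22.1, 20.6, 18.1 and 18.5 CPM in M-WT and 13.1, 12.9 and 14.9 CPM in M-TTPΔARE HSCs. Neither pair of groups overlapped. The log2 fold change was 0.74 in young HSCs (adjusted p = 0.126) and -0.54 in middle-aged HSCs (adjusted p = 0.0389), and the difference between ages was -1.32 (adjusted p = 0.0149). In MPP3 cells it was 0.53 (adjusted p = 0.0673). In young HSCs Cxcr4 passed without Y-WT HSC replicate 1 (adjusted p = 0.0383). The middle-aged call was lost without M-WT replicate 2, 3 or 5 or any M-TTPΔARE library (adjusted p = 0.0604 to 0.162), with the replicate block (0.114) and in the fit over 24 libraries (0.27). The call on the difference between ages was lost without M-WT replicate 3, 4 or 5, any M-TTPΔARE library, replicate 4 of the Y-WT HSCs or replicate 1 of the Y-TTPΔARE HSCs (adjusted p = 0.0509 to 0.169). The directions held under every alternative run, with -1.514 to -1.211 for the difference between ages. Cxcr4 stood on the lists of clock outputs and of glucocorticoid-induced genes. These lists were chosen with earlier results of these data known. The HSC libraries are those behind the choice of Per1, so the p-values of Cxcr4 are not independent support for the Per1 pattern.

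The 17 glucocorticoid-induced genes were listed because Per1 is one of the genes that hormone induces. Their median log2 fold change with TTPΔARE was 0.35 in young HSCs (0.03 over all expressed genes) and -0.17 in middle-aged HSCs (-0.03). In MPP3 cells 14 of them were above the expression limit, with a median of 0.35 (0.00). The summed level of the list did not turn with age as the median did. It was 2240 to 3540 CPM in Y-WT and 3660 to 3900 in Y-TTPΔARE HSCs. In middle-aged HSCs it was 2770 to 3860 (median 3070) in M-WT and 3520 to 4290 (median 3930) in M-TTPΔARE, with overlap. In young HSCs 0 of the 17 were called (0.0246% of all genes). In middle-aged HSCs, where 1.41% of all genes were called, Cebpd (-0.82, adjusted p = 0.0231) and Cxcr4 fell and Sesn1 rose (0.34, adjusted p = 0.0284). Cebpd was lost without any 1 of the M-TTPΔARE libraries (adjusted p = 0.0534 to 0.114), and Sesn1 without any of these or M-WT replicate 5 (0.0571 to 0.165). Both were also lost with the replicate block (adjusted p = 0.118 and 0.159) and in the fit over 24 libraries (0.0658 and 0.176), and Sesn1 with the likelihood ratio test (0.115). In MPP3 cells 1 of the 14 was called (1.71% of all genes), namely Sgk1, a kinase gene induced by the hormone. It rose from 12.2, 7.77, 10.4 and 9.70 CPM to 25.0, 21.8, 22.4 and 28.3 CPM (1.25, adjusted p = 0.00125). Sgk1 passed under every alternative run (adjusted p up to 0.0131). Sgk1 did not separate the genotypes in HSCs, where it was at 7.58 to 30.8 CPM in Y-WT and 14.5 to 25.3 CPM in Y-TTPΔARE. Not every gene of the list had the signs of Per1. Dusp1 means were 52.3 and 44.9 CPM in young and 40.3 and 53.7 CPM in middle-aged HSCs (WT first), with overlap at both ages. Cebpd was also lower with TTPΔARE in young HSCs (means 14.0 and 10.7 CPM, overlapping).

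The 19 cAMP and immediate-early genes, another class of Per1 inducers and their companions, had medians of -0.02, 0.02 and 0.39 in the 3 genotype comparisons. In each comparison 14 of the 19 were above the expression limit. Of these 14 only Btg2, an antiproliferative gene, was called, in MPP3 cells (0.80, adjusted p = 0.0411), where 1.71% of all genes were. It was lost without any 1 of the 8 libraries (adjusted p = 0.0592 to 0.152). In young and middle-aged HSCs 0 were called (0.0246% and 1.41% of all genes). Atf3, a stress-induced transcription factor gene named after its values were seen, was below the limit in MPP3 cells (mean log2 CPM 1.24), at 0.705, 0.0578, 0.838 and 0.311 CPM in WT and 8.37, 2.98, 3.69 and 3.51 CPM in TTPΔARE (log2 fold change 3.30, adjusted p = 0.0362, and 2.63e-05 to 0.162 over the alternatives).

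Among 13589 other genes, Tsc22d3 was the one whose level followed Per1 most closely across libraries. It encodes GILZ, a glucocorticoid-induced leucine zipper protein. After each group mean was subtracted, Pearson's r over the 24 libraries was 0.841, followed by Nacc2 (0.831), Rhof (0.807), C230013L11Rik (0.805) and Cbx6 (0.804). At the other end stood Itga2b (-0.796), a platelet and megakaryocyte integrin. Points share library depth and scaling, and no p is given.

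Tsc22d3 was read at 510, 369, 325 and 383 CPM in Y-WT and 649, 898, 489 and 570 CPM in Y-TTPΔARE HSCs. It was at 343, 479, 333, 373 and 404 CPM in M-WT and 268, 322 and 306 CPM in M-TTPΔARE HSCs. The library with the highest Per1 in each young TTPΔARE group, replicate 2, also had the highest Tsc22d3, 898 CPM in HSCs and 686 CPM in MPP3 cells. Its log2 fold changes, 0.67, -0.42 and 0.81 in young HSCs, middle-aged HSCs and MPP3 cells, had the same signs as those of Per1, and none passed edgeR's quasi-likelihood test (DESeq2 passed the last 2, with adjusted p of 0.00289 and 0.0317).

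**Figure D4:**
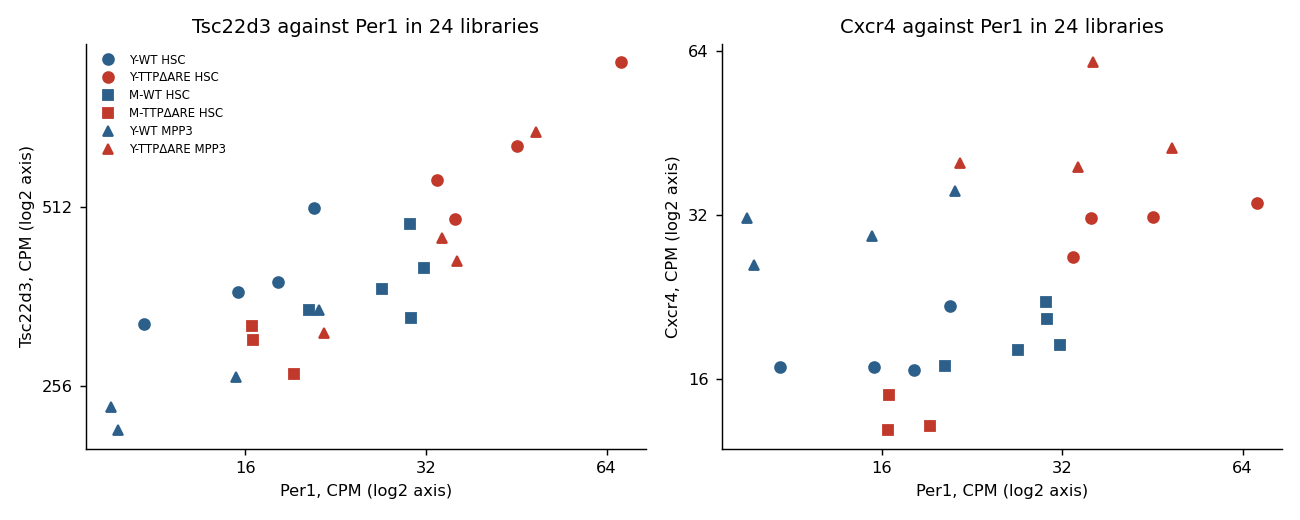
Tsc22d3 (left) and Cxcr4 (right) against Per1, in CPM on log2 axes, for the 24 libraries (circles young HSC, squares middle-aged HSC, triangles MPP3, blue WT, red TTPΔARE). Tsc22d3 rises with Per1 (r = 0.841 within groups on log2 values), and in the right panel the 3 red squares lie lowest at 12.9 to 14.9 CPM of Cxcr4.

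The members did not move as 1 block from library to library. Over the 45 pairs of members the median within-group r was 0.125, and 31 pairs were above 0. The highest was between Per3 and Dbp (0.676) and the lowest between Per3 and Cry1 (-0.56), while Per1 and Per2 had r = 0.475. For Dbp the closest genes were Rnpc3 (0.858) and Prpf39 (0.853), neither of them a clock gene.

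HSC and MPP3 libraries of the same genotype and number were set side by side, as deviations from their group means. Over these 8 pairs Pearson's r was 0.787 for Per1 and 0.74 for Per2, at or above which lay 4.48% and 6.64% of all genes, the median gene having 0.262. Per1 was highest in replicate 2 of both Y-TTPΔARE cell types (67.6 and 48.7 CPM) and highest in replicate 1 of both Y-WT cell types (20.8 and 21.2 CPM). Clock (-0.696) and Arntl (-0.635) went the other way, with 98.7% and 98.1% of genes at or above them. The numbers paired TTPΔARE libraries over all genes but did not meet that criterion in WT, so the 8 pairs are a description.

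**Figure D5:**
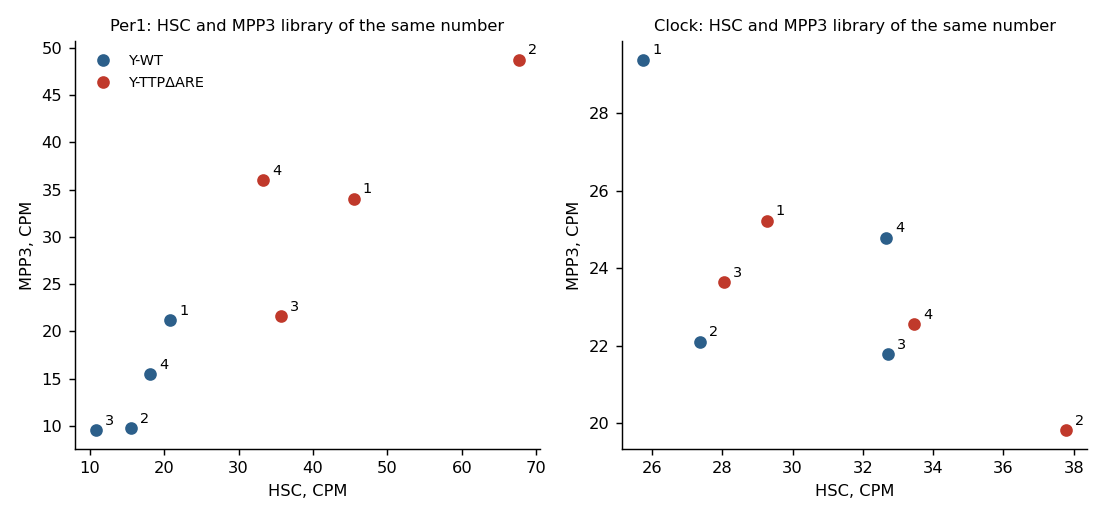
Per1 (left) and Clock (right) in CPM, each point an HSC library (horizontal axis) and the MPP3 library of the same genotype and replicate number (vertical axis), numbers beside points being the replicate. Per1 rises along the diagonal to replicate 2 of Y-TTPΔARE at 67.6 and 48.7 CPM, whereas that same replicate has the highest Clock in HSCs (37.8 CPM) and the lowest in MPP3 cells (19.8 CPM).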

How the data were processed

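The 24 libraries were bulk mRNA-seq of sorted HSCs and MPP3 cells. According to the methods and labels, the authors used Trim Galore! with Cutadapt for trimming, STAR on mm10 with a GENCODE M22 index for alignment and featureCounts for counting per gene. The values deposited are raw, unnormalized counts for 55376 gene symbols. Strand and multimapping settings are not given in the sources used here, and the labels and the methods name different library kits. The total per library was 24261371 to 39934554, which gave 206 to 3482 reads per member and library.

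Genes were kept by filterByExpr (minimum count 10, minimum total count 15), scaled by TMM and tested with the quasi-likelihood F test of edgeR 4.0.16 in R 4.3.3 on the libraries of each comparison, with Benjamini-Hochberg adjustment over all genes tested. A call needed an adjusted p below 0.05, more than 1.2-fold change and a mean log2 CPM above 1.5. The quasi-likelihood test, the likelihood ratio test and DESeq2 were run on simulated counts with 200 changed genes, for the genotype comparisons and their difference between ages. The other alternatives and comparisons were not simulated. Printed CPM are on 1 TMM scale over the 24 libraries, whereas fold changes come from each comparison's own fit. Correlations used log2 CPM with a prior count of 2. DESeq2 1.42.0, edgeR's likelihood ratio test, other scalings, no filter, immunoglobulin and T cell receptor segment genes left out, 1 fit over all libraries, a replicate block and leaving out each library were tried.

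Members and gene lists were chosen with earlier results of these data known. Named genes were all members, the called genes of the lists (at most 5 per direction), the 5 nearest patterns of Per1, Dbp and Arntl, and Zfp36; members with an unadjusted p of 0.05 or more are given by range, apart from single values. Replicate numbers were checked over 13590 genes. Same-numbered Y-TTPΔARE HSC and MPP3 libraries deviated together in all 4 pairs (r = 0.144 to 0.234), with no shared origin stated in the labels; the other pairs of groups did not meet this. All 4 Y-TTPΔARE MPP3 libraries were used, whereas the study analysed 3. Promoters came from RefSeq (GRCm38.p6) and gene models from GENCODE M21, not the release used for counting. Results for some genes of these lists and correlations are not reported here.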

Additional observations from a re-analysis of the deposited data

Results flagged for a closer look

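In the 50 combinations of a member and a group with 4 or 5 libraries, 5 had 1 library far from the others by Dixon's criterion at 95%, where chance gives about 1 in 20. Of these, 3 lay in Y-WT MPP3 cells: Per3 was lowest in replicate 2 (29.4 CPM), Nr1d1 was lowest in replicate 3 (8.48 CPM) and Nr1d2 was highest in replicate 4 (83.9 CPM). Dbp was lowest in M-WT HSC replicate 3 (10.2 CPM) and highest in Y-TTPΔARE MPP3 replicate 4 (24.0 CPM). Per1 had no such library in the 5 groups of 4 or 5, and the 3 M-TTPΔARE HSC libraries were not examined. The genotype difference of Per1 was smaller by 2.22 on the log2 scale (a difference of -2.218) in middle-aged than in young HSCs, with every library of the TTPΔARE group on the opposite side of its WT group at each age. That difference was not tested, because the gene was chosen by it.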

How the results depend on the processing

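Of the alternative values for members with a test, 410 kept their direction and side of the threshold, 29 passed only under the alternative, 30 no longer passed and 2 changed sign. Of the Per1 values without a test, 141 kept their direction and 3 changed sign. Of those for the other named genes, 259 kept both, 16 passed only under the alternative and 53 no longer passed. The changes of sign were the difference of the Per2 genotype effect between ages, which became 0.024 with upper quartile scaling and 0.009 without Y-TTPΔARE HSC replicate 2 (range with libraries left out -0.203 to 0.009), and the difference of the Per1 genotype effect between MPP3 cells and HSCs, which became 0.077 without Y-TTPΔARE HSC replicate 2, 0.053 without Y-WT MPP3 replicate 1 and 0.027 without Y-TTPΔARE MPP3 replicate 3 (range with libraries left out -0.43 to 0.077). Over all alternatives the Per1 log2 fold change with TTPΔARE stayed between 1.239 and 1.653 in young HSCs, between -0.82 and -0.67 in middle-aged HSCs and between 1.049 and 1.513 in MPP3 cells. In young HSCs Zfp36 passed with DESeq2 (adjusted p = 0.00074), the likelihood ratio test (0.013), no filter (0.0348) and without Y-WT HSC replicate 1 (0.0419), and Cxcr4 with DESeq2 (4.54e-05), the likelihood ratio test (0.00172), no filter (0.0264) and all 24 libraries in 1 fit (0.035).

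Counts of members called moved as follows, and the cause was not tested. In middle-aged HSCs they went from 0 to 2 with DESeq2 and without the filter (Cry2 and Dbp), and from 0 to 1 across libraries left out (1 without M-WT HSC replicate 1). In MPP3 cells they went from 0 to 1 with DESeq2, the likelihood ratio test and no filter (Per1) and to 3 with all 24 libraries in 1 fit (Per1, Cry2, Nr1d2). Between WT cell types they went from 1 to 2 with DESeq2, to 4 with upper quartile scaling and to 0 to 1 with libraries left out. Between TTPΔARE cell types they were 0 to 6 with libraries left out, against 5. Between ages in WT they went from 0 to 1 without the filter (Clock), and 0 to 1 with libraries left out, 1 each without Y-WT HSC replicate 1, 2 or 3. Between ages in TTPΔARE they went from 1 to 2 with DESeq2 and were 1 to 2 with libraries left out, 2 without Y-TTPΔARE HSC replicate 2. The exact test of Per1 in MPP3 cells (difference 1.34) gave differences of 1.168 to 1.571 with 1 library left out, and 7 of these 8 had p = 0.0571.

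With the replicate block, the count between ages in TTPΔARE HSCs fell from 1 to 0, and 5 members were called between TTPΔARE cell types. The block left the count at 0 in all 3 genotype comparisons and in both interactions, and at 1 between WT cell types. Same-numbered libraries of other groups did not meet the criterion that the Y-TTPΔARE pairs met (for Y-WT HSC and MPP3 r = 0.029 to 0.19). Of the 4 WT numbers, 2 correlated best with their own. Whether any same-numbered libraries share an origin is not stated.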
